A study of Homo sapiens with 2 samples.

Results

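The genes described here encode lysosomal enzymes, lysosomal membrane proteins and the proton pump that acidifies the lysosome. They were taken from a list of 52 gene symbols, as every probe that names 1 gene and carries a listed symbol. This gave 51 genes on 69 probes, of 19414 genes on the array. The missing one is ATP6V0C, a ring subunit of the pump, whose probe names 2 genes (ATP6V0C and ATP6V0CP3). The list has 4 roles: 13 cathepsins and legumain, 19 other hydrolases with their activator, 8 membrane and sterol-carrier proteins, and 12 pump subunits. RNA came from A375SM, a highly metastatic human melanoma cell line, transduced by lentivirus with an NFAT1-shRNA in one line and a non-targeting shRNA (NT-shRNA) in the other. A short hairpin RNA (shRNA) targets a transcript for degradation, and NFAT1 is a transcription factor activated by the phosphatase calcineurin and encoded by NFATC2. Both lines were sorted for the brightest 50% of GFP-positive cells and grown in the same medium, so the virus and GFP are common to both, and both are sorted pools. The design text gives 3 biological replicates a line, but the table holds 1 combined intensity with 1 error per probe and line, so the spread between replicates could not be computed. The kind of error is not stated.

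Lysosomes break down proteins, glycans, lipids and nucleic acids with hydrolases that work at acid pH. Most of these enzymes are tagged with mannose 6-phosphate in the Golgi and carried to the lysosome by receptors. The vacuolar proton pump keeps the lumen acid, with a V1 part that splits ATP and a V0 part in the membrane that conducts protons. Many lysosomal genes are bound by TFEB, TFE3 and MITF, related transcription factors that recognise a sequence built around CACGTG, and melanocytes use part of the same machinery to make melanosomes.

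Few members changed, and not all in 1 direction. Cathepsin D (CTSD), cathepsin A (CTSA) and the sterol carrier NPC2 were higher in the NFAT1-shRNA line, and cathepsin L (CTSL1, now CTSL) was lower. These were 4 of 42 members with a ratio (9.52%), against 7.55% of 9516 genes across the array, at an adjusted p under 0.05. The p-values are those of the authors' deposited table, adjusted here for all 9516 genes (Benjamini-Hochberg), where a gene with several probes counts through the brightest on average. By direction, 3 members were higher (7.14%, against 3.35% of all genes) and 1 was lower (2.38%, against 4.19%). The share of members that passed was close to that of the array. Without adjustment, 13 members had p under 0.05 in the authors' deposited table (31.0%, against 19.2% of all genes), 11 with a positive ratio (26.2%, against 9.12%) and 2 with a negative one (4.76%, against 10.1%). The log2 ratios of the 42 members in the authors' deposited table had a median of 0.08, where that of all genes was -0.02, with 22 positive and 20 negative.

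On detection, 39 of the 51 members read above background (detection p-value under 0.01) in both lines, 2 in the NFAT1-shRNA line alone and 10 in neither. For the 42 members with a ratio the deposited error was a median 6.89% of the signal in NFAT1-shRNA cells, against 10.3% in NT-shRNA cells. Across the array, 9185 of 29187 probes were detected in NFAT1-shRNA cells, against 8783 in NT-shRNA cells, and the number of arrays limits the precision. The median gene with a ratio was 1.23-fold brighter in the NFAT1-shRNA line. The ratio in the authors' deposited table is centred near 0 over all genes. It is not the quotient of the intensities less this 1 shift, because the gap between them differs from gene to gene. On the log2 scale, PSAP had a quotient of 0.12 and a ratio of -0.01 in the authors' deposited table. ATP6V1A had -0.21 and -0.68. Differences below are those of the authors' ratio unless a quotient is named. The line labelled NFAT1-shRNA did not have less NFATC2 signal on the probe that was detected. That probe read 279.2 (error 15.7) in NFAT1-shRNA cells, against 199.4 (error 15.2) in NT-shRNA cells, with 0.12 on the log2 scale in the authors' deposited table (adjusted p = 0.819). The other NFATC2 probe was detected in neither line and went the other way. It read 41.6 (error 9.6) in NFAT1-shRNA cells, against 57.8 (error 10.6) in NT-shRNA cells, with -0.23 in the authors' deposited table (authors' unadjusted p = 0.504). Each direction is therefore that between the lines as labelled. RNA was taken from whole cultures, in which fewer cells of a type and less RNA per cell cannot be told apart.

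**Figure D1:**
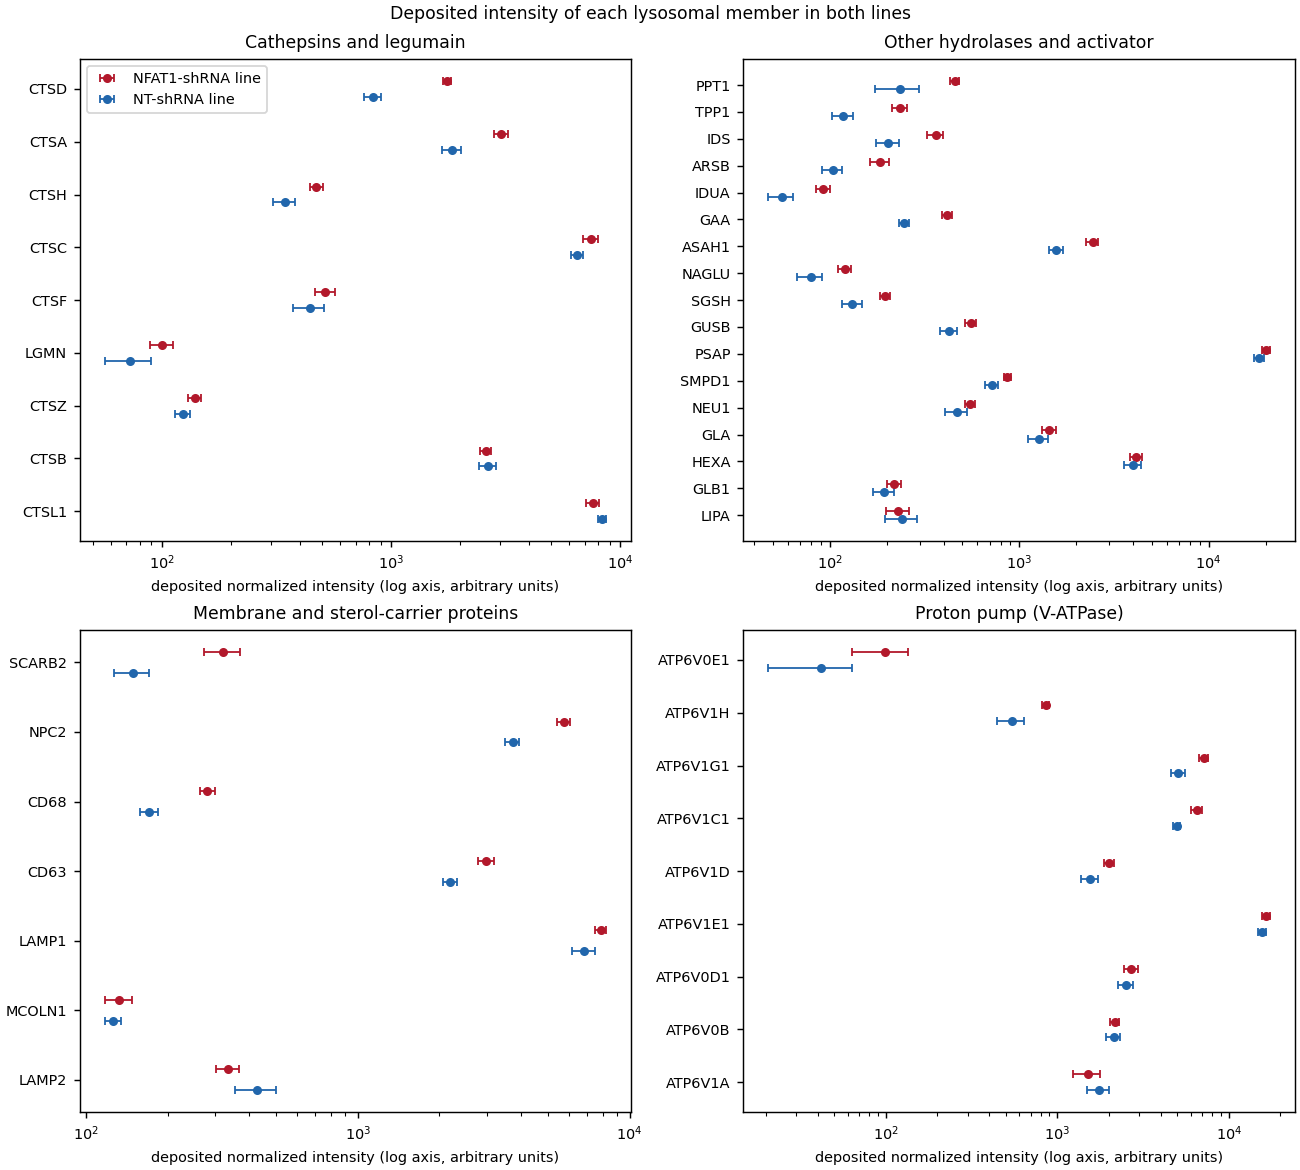
Deposited normalized intensity (log axis) of the 42 members with a ratio, in the NFAT1-shRNA line (red, upper of each pair) and the NT-shRNA line (blue, lower), with the deposited error as bars and genes ordered within each role by their ratio. The points of a pair may be compared with each other but not with those of another gene. Pairs keep the shift between the lines, by which the median gene is 1.23-fold brighter in the NFAT1-shRNA line. CTSD read 1759 in NFAT1-shRNA cells, against 833.2 in NT-shRNA cells, while its ratio in the authors' deposited table is 1.72-fold.

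CTSD, an aspartic protease and one of the main protein-degrading enzymes of the lysosome, had the strongest evidence of change among the cathepsins. It read 1759 (error 78.5) in NFAT1-shRNA cells, against 833.2 (error 68.3) in NT-shRNA cells, and the values lay far outside each other's error. For CTSD the authors' deposited table listed, on the log2 scale, 0.79, 1.72-fold higher in the NFAT1-shRNA line (95% interval 0.52 to 1.05 by the deposited errors, adjusted p = 3.78e-07). CTSA, a serine carboxypeptidase that also protects the hydrolases GLB1 and NEU1 from degradation, read 3023 (error 208.1) in NFAT1-shRNA cells, against 1849 (error 178.9) in NT-shRNA cells. For CTSA the authors' deposited table listed 0.46 on the log2 scale, 1.38-fold higher (interval 0.12 to 0.80, adjusted p = 0.0448), close to the threshold. The other CTSA probe, at 898 in NFAT1-shRNA cells, against 546 in NT-shRNA cells, had 0.43 on the log2 scale in the authors' deposited table. Its partners did not pass: GLB1 (beta-galactosidase) had a log2 ratio of -0.19 and NEU1 (a sialidase) of -0.09 in the authors' deposited table.

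CTSL1, a cysteine protease of broad specificity, was the 1 member that fell. It read 7605 (error 520.7) in NFAT1-shRNA cells, against 8341 (error 332.6) in NT-shRNA cells, values whose errors overlap, with the lower reading in the NFAT1-shRNA line. Its value on the log2 scale in the authors' deposited table was -0.36 (interval -0.58 to -0.13), 1.28-fold higher in the NT-shRNA line, at an adjusted p of 0.0494. Adjusted over all probes in place of genes, the p of the authors' deposited table for CTSL1 was 0.0526 and it no longer passed. Cathepsin L and cathepsin D are proteases of different catalytic classes, and they moved in opposite directions here.

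The remaining cathepsins with a ratio did not pass. CTSB, another broad cysteine protease, read 2587 (error 138.9) in NFAT1-shRNA cells, against 2639 (error 226.5) in NT-shRNA cells. Its value was, on the log2 scale in the authors' deposited table, -0.27 on that probe (interval -0.55 to 0.02), and 0.05 on the dimmer one. CTSC, a dipeptidyl peptidase that activates the serine proteases of leukocytes, read 7449 (error 533.7) in NFAT1-shRNA cells, against 6502 (error 420.6) in NT-shRNA cells on its brightest probe. The 3 CTSC probes had -0.03, 0.06 and 0.69 on the log2 scale in the authors' deposited table, none past the threshold, and the last was not detected in the NT-shRNA line. CTSH, an aminopeptidase, had 0.12, CTSF -0.08 and the carboxypeptidase CTSZ -0.17 as log2 ratios in the authors' deposited table. Legumain (LGMN), which cuts after asparagine and matures other cathepsins, read 99.9 in NFAT1-shRNA cells, against 72.9 in NT-shRNA cells, where it was not detected. On that probe the quotient centred on the median gene was 0.15, where the authors' deposited table lists -0.12 (interval -0.84 to 0.60, adjusted p = 0.943), so the sign depends on the scaling and no direction is given. Its other probe, detected in both, had 0.04 in the authors' deposited table. CTSK, CTSL2 (now CTSV), CTSO and CTSS were detected in neither line and have no ratio. Of the 9 cathepsins with a ratio, 3 were positive and 6 negative, with a median of -0.08 in the authors' deposited table.

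**Figure D2:**
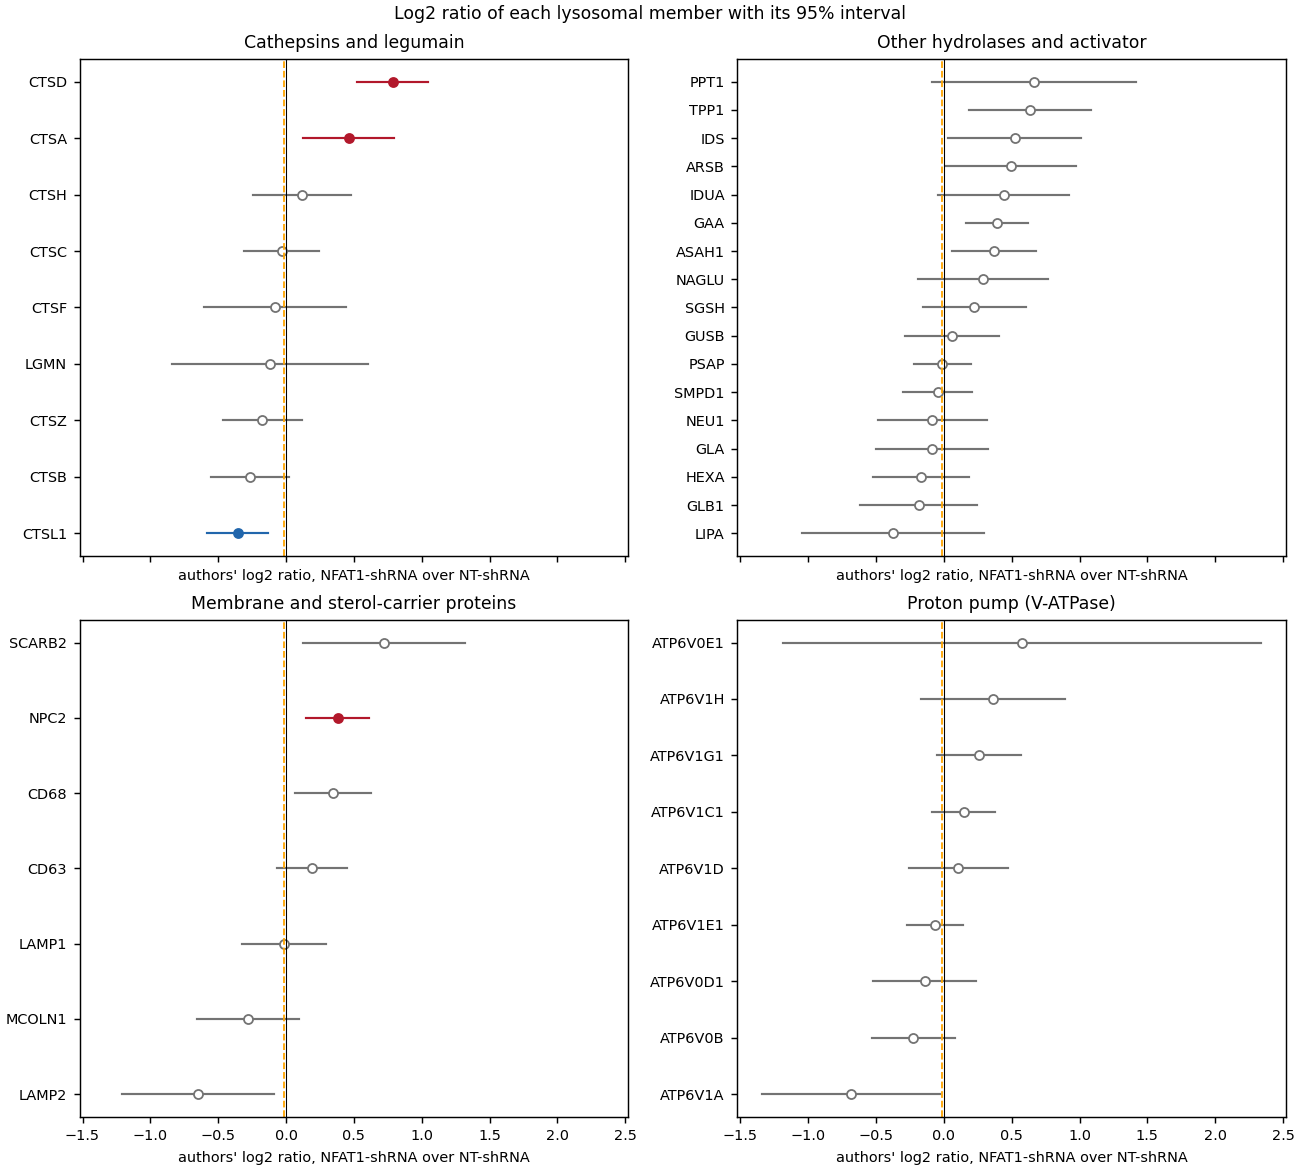
Log2 ratio of NFAT1-shRNA over NT-shRNA in the authors' deposited table for the 42 members with a ratio, by role; lines are 95% intervals from the deposited errors, filled red points passed as higher and filled blue as lower at an adjusted p under 0.05, and the dashed line is the median of all genes (-0.02). CTSD, CTSA and NPC2 are filled red and CTSL1 blue, and all hydrolases and pump subunits are open.

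To show what the starts of the 4 changed members hold, their promoters are given from RefSeq (build GRCh38.p14, 250 bases before to 50 after a gene start), on the strand of the gene, with CACGTG in capitals.
CTSD promoter, chr11:1763878-1764177, minus strand: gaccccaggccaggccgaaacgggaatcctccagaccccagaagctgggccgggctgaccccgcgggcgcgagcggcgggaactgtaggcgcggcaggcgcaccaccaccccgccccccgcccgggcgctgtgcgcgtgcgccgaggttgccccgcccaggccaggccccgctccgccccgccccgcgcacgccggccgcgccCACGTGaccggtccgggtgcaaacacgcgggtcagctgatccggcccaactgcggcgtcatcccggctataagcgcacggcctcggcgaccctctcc
CTSA promoter, chr20:45891085-45891384, plus strand: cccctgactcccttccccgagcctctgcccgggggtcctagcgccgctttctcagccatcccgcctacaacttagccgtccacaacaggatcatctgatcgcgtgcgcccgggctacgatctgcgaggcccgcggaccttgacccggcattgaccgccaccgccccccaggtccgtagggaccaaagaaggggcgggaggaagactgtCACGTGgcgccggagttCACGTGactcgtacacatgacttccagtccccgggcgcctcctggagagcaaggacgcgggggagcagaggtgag
NPC2 promoter, chr14:74493463-74493762, minus strand: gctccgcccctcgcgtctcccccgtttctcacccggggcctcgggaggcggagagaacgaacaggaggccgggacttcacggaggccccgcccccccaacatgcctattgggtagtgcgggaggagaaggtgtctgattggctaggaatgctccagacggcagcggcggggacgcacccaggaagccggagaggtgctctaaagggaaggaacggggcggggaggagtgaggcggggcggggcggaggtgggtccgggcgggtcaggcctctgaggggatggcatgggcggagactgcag
CTSL1 promoter, chr9:87725869-87726168, plus strand: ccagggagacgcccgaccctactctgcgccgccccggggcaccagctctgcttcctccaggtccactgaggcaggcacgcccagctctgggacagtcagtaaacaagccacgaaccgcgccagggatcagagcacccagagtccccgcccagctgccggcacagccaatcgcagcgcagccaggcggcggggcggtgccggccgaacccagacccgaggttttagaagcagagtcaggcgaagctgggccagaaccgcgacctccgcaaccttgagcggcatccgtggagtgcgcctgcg
The CTSA window holds CACGTG in 2 places and that of CTSD in 1. The windows of CTSL1 and NPC2 hold none, and neither does the window of the other listed NPC2 start. The promoter table matched 33 of the 51 members. Of these, 12 hold CACGTG in a window: 3 of 8 cathepsins, 3 of 12 hydrolases, 3 of 7 membrane and sterol-carrier proteins and 3 of 6 pump subunits. Counted over windows, since a gene can have several that overlap, this was 12 of 47 (25.5%), against 2548 of 35116 windows (7.26%) in the whole table. CACGTG is its own reverse complement, so both strands were read. The CLEAR sequence, a longer palindrome of 10 bases that contains it, was in 3 member windows (6.38%, against 0.353% of all windows), those of ATP6V1G1, GAA and MCOLN1. None of these 3 genes passed, with, on the log2 scale in the authors' deposited table, 0.26 for ATP6V1G1, 0.39 for GAA and -0.28 for MCOLN1. LAMP1, whose window holds CACGTG in 6 places, had -0.01 in the authors' deposited table. A match is a stretch of letters and not a measured binding site.

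Among the other hydrolases none passed. Of 17 with a ratio, 5 had an unadjusted p under 0.05 in the authors' deposited table (29.4%, against 19.2% of all genes). All 5 had a positive ratio (29.4%, against 9.12% of all genes). The 17 ratios in the authors' deposited table had a median of 0.22, with 10 positive and 7 negative. TPP1, a tripeptidyl peptidase, came nearest. It read 234.9 (error 22.5) in NFAT1-shRNA cells, against 118 (error 15) in NT-shRNA cells, and the authors' deposited table put the log2 ratio at 0.64 (interval 0.19 to 1.09, adjusted p = 0.0820). PPT1, which removes palmitate from proteins, read 457.5 (error 26.4) in NFAT1-shRNA cells, against 233.8 (error 60.7) in NT-shRNA cells. It had the largest ratio of the role in the authors' deposited table, 0.67 on the log2 scale, and did not pass (interval -0.09 to 1.42, adjusted p = 0.338). The wide interval goes with the NT-shRNA error.

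The next were enzymes of glycan, glycogen and lipid breakdown. IDS, a sulfatase that acts on heparan and dermatan sulfate, read 362.7 (error 35.2) in NFAT1-shRNA cells, against 204 (error 29.3) in NT-shRNA cells, with 0.52 on the log2 scale in the authors' deposited table (interval 0.03 to 1.01, adjusted p = 0.194). A dimmer IDS probe had 0.33 in the authors' deposited table and was not detected in the NT-shRNA line. ARSB, the sulfatase of dermatan and chondroitin sulfate, read 184.3 (error 20.8) in NFAT1-shRNA cells, against 103.7 (error 13) in NT-shRNA cells, with 0.49 on the log2 scale in the authors' deposited table (adjusted p = 0.229). GAA, which digests glycogen, read 416.6 (error 24) in NFAT1-shRNA cells, against 246.8 (error 14.1) in NT-shRNA cells. Its interval, 0.16 to 0.62 around the ratio in the authors' deposited table given with the promoters, left out 0, but the adjusted p was 0.101. Acid ceramidase (ASAH1) read 2445 (error 177.8) in NFAT1-shRNA cells, against 1573 (error 127.5) in NT-shRNA cells, with 0.37 on the log2 scale in the authors' deposited table (adjusted p = 0.165). These 4 genes and TPP1 are the 5 counted at the unadjusted threshold.

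The rest of the role did not reach the unadjusted threshold. IDUA, which cleaves iduronic acid from glycosaminoglycans, read 92.7 in NFAT1-shRNA cells, against 55.9 in NT-shRNA cells, where it was not detected. Set against the smallest detected signal of the NT-shRNA line, 60.4, and less the shift between the lines, its reading was 1.24-fold higher. This is not a lower bound, because probes could go undetected at higher NT-shRNA signals, as LGMN did at 72.9. The authors' deposited table put the log2 ratio of IDUA at 0.44 (interval -0.05 to 0.93, adjusted p = 0.452). That interval included 0. NAGLU and SGSH, enzymes of heparan sulfate breakdown, had 0.29 and 0.22 on the log2 scale in the authors' deposited table, and GUSB (beta-glucuronidase) had 0.06. Prosaposin (PSAP), the precursor of the saposins that help hydrolases reach sphingolipids, read 20041 (error 949) in NFAT1-shRNA cells, against 18467 (error 1060) in NT-shRNA cells. The authors' deposited table put its log2 ratio at -0.01 (interval -0.22 to 0.20). GLA (alpha-galactosidase) had -0.09, HEXA (a beta-hexosaminidase subunit) -0.17 and the acid lipase LIPA -0.38 as log2 ratios in the authors' deposited table, and the interval of LIPA ran from -1.05 to 0.30. ARSA and MANBA were detected in neither line and have no ratio.

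Acid sphingomyelinase (SMPD1) gave different answers on its 2 probes, both detected in both lines. The brighter probe read 868.3 (error 40.5) in NFAT1-shRNA cells, against 719.4 (error 55.1) in NT-shRNA cells, with -0.04 on the log2 scale in the authors' deposited table and an interval of -0.30 to 0.21. The dimmer probe read 292.5 (error 20.4) in NFAT1-shRNA cells, against 158.2 (error 15.5) in NT-shRNA cells, with 0.52 in the authors' deposited table and an interval of 0.18 to 0.86. Adjusted over all probes, the p of the dimmer probe was 0.0248. Whether the probes read different transcripts was not tested.

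Of the membrane and sterol-carrier proteins, 1 of 7 with a ratio passed (14.3%, against 7.55% of all genes). NPC2, a soluble protein of the lumen that hands cholesterol to the membrane protein NPC1, read 5719 (error 322.8) in NFAT1-shRNA cells, against 3717 (error 219.5) in NT-shRNA cells. On the log2 scale the authors' deposited table put it at 0.38, 1.30-fold higher (interval 0.15 to 0.61, adjusted p = 0.00444). The dimmer NPC2 probe read 441.5 in NFAT1-shRNA cells, against 254.4 in NT-shRNA cells, with 0.44 on the log2 scale in the authors' deposited table. SCARB2 (LIMP-2), the receptor that carries glucocerebrosidase to lysosomes, read 321.2 (error 48.2) in NFAT1-shRNA cells, against 148.8 (error 21.9) in NT-shRNA cells. It had the largest ratio of the role in the authors' deposited table, 0.72 (interval 0.13 to 1.32), and did not pass (adjusted p = 0.158). CD68, a heavily glycosylated membrane protein abundant in macrophages, read 280.5 (error 17.3) in NFAT1-shRNA cells, against 171.4 (error 13.3) in NT-shRNA cells, with 0.34 on the log2 scale in the authors' deposited table (adjusted p = 0.243).

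The 2 LAMP proteins, which coat the inner face of the lysosomal membrane, did not pass on their brightest probes. LAMP1 read 7823 (error 363.1) in NFAT1-shRNA cells, against 6804 (error 680) in NT-shRNA cells. On the log2 scale it had -0.01 in the authors' deposited table and -0.10 as the quotient centred on the median gene. LAMP2, which also serves chaperone-mediated autophagy, read 334.2 (error 33.4) in NFAT1-shRNA cells, against 427 (error 73) in NT-shRNA cells. The LAMP2 value on the log2 scale in the authors' deposited table was -0.65 (interval -1.21 to -0.09, adjusted p = 0.170). A dimmer LAMP2 probe had -0.61 in the authors' deposited table, and its p adjusted over all probes was 0.0481, so LAMP2 passes on that probe and not on the brighter one. The difference between LAMP1 and LAMP2 was not tested. The tetraspanin CD63 had a log2 ratio of 0.19 and the calcium channel MCOLN1 -0.28 in the authors' deposited table, with the MCOLN1 interval running from -0.65 to 0.10. CTNS, the cystine exporter, was detected in neither line.

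No pump subunit passed, of 9 with a ratio. Without adjustment 1 subunit (11.1%, against 19.2% of all genes) had p under 0.05 in the authors' deposited table: ATP6V0E1, a small V0 subunit. It read 99.2 (error 35.9) in NFAT1-shRNA cells, against 41.9 (error 21.3) in NT-shRNA cells, was detected in neither line and so gets no fold. Its interval by the deposited errors ran from -1.19 to 2.34, across 0. ATP6V1A, the catalytic subunit that splits ATP, read 1509 (error 274.4) in NFAT1-shRNA cells, against 1743 (error 249.6) in NT-shRNA cells. Its value was, on the log2 scale in the authors' deposited table, -0.68 (interval -1.34 to -0.03, adjusted p = 0.388). The interval left out 0, but the authors' unadjusted p was 0.100. ATP6V1H, which regulates the coupling of V1 to V0, read 853.4 (error 42.1) in NFAT1-shRNA cells, against 543.7 (error 98.1) in NT-shRNA cells, with 0.36 in the authors' deposited table (interval -0.17 to 0.89, adjusted p = 0.475). These 2 subunits of V1 differed in sign, with wide intervals.

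The other 6 subunits had narrower intervals and did not pass. The stalk subunits ATP6V1E1 and ATP6V1G1 had -0.07 and 0.26 on the log2 scale in the authors' deposited table, the rotor subunit ATP6V1D had 0.11 and ATP6V1C1 had 0.15. In the membrane part, ATP6V0B had -0.22 and ATP6V0D1 -0.14 as log2 ratios in the authors' deposited table. ATP6V1E1 read 16437 (error 841.2) in NFAT1-shRNA cells, against 15570 (error 821.1) in NT-shRNA cells, and its interval of -0.27 to 0.14 was the narrowest of the role. ATP6V0A1 and ATP6V1B2 were detected in neither line and have no ratio. The 9 ratios in the authors' deposited table had a median of 0.11, with 5 positive and 4 negative.

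**Figure D3:**
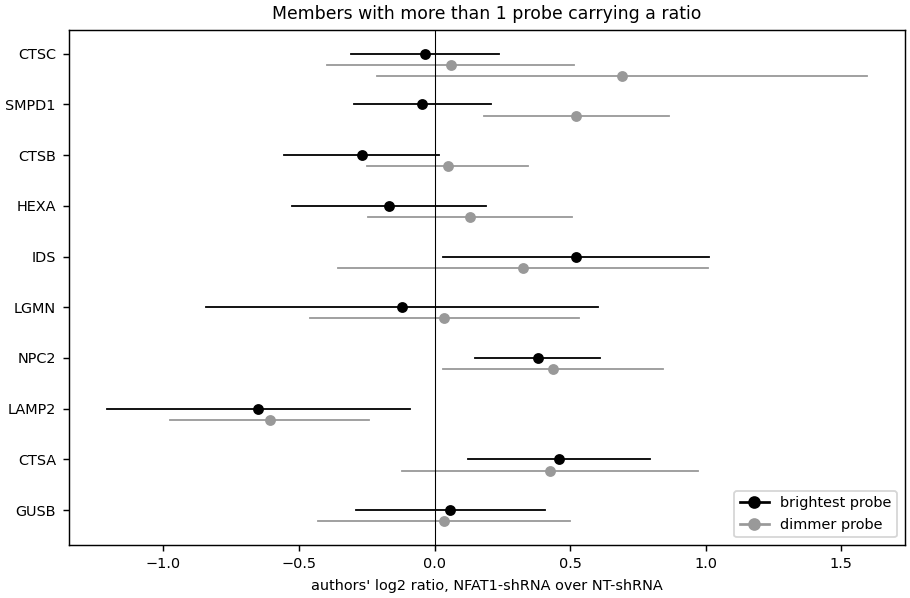
Log2 ratio in the authors' deposited table for each probe of the 10 members with more than 1 probe carrying a ratio, brightest probe in black and dimmer probes in grey, with 95% intervals from the deposited errors. CTSA, GUSB, IDS, LAMP2 and NPC2 keep their sign on all their probes, and CTSB, CTSC, HEXA, LGMN and SMPD1 do not.

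Different probes of 1 gene show how far its ratios vary. Of 10 members with several ratios, 5 had the same sign on every probe and 5 did not, and the gap between a gene's lowest and highest ratio had a median of 0.18 on the log2 scale. Among the called members, CTSA and NPC2 have a second probe with a ratio, and both gaps were small, 0.03 and 0.06 on the log2 scale. CTSD and CTSL1 rest on 1 probe each. The second probe of HEXA had 0.13 in the authors' deposited table, and that of GUSB 0.04.

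**Figure D4:**
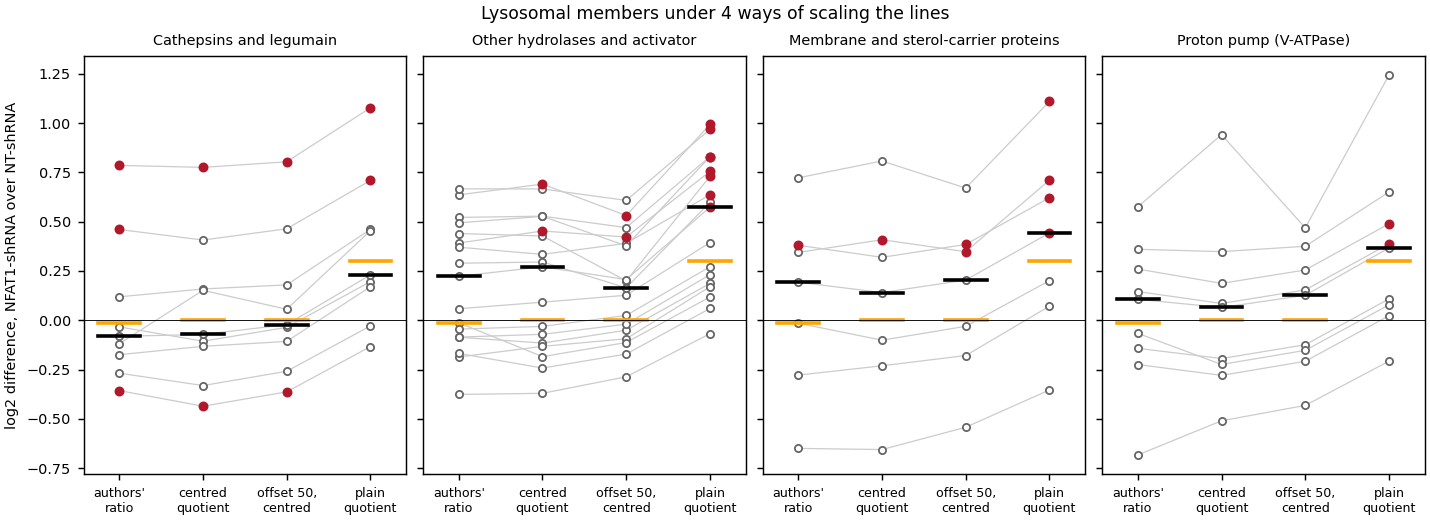
Log2 difference of NFAT1-shRNA over NT-shRNA for the 42 members by role, under 4 scalings: the ratio of the authors' deposited table, the quotient of the intensities centred on the median gene, the same after adding 50 to each intensity, and the plain quotient. Filled points passed at an adjusted p under 0.05, by the authors' p-values for their ratio and by the deposited errors for the quotients. Black bars are medians of the role and orange bars medians of all genes. Under the plain quotient 16 members pass, all higher, and the median of all genes stands at 0.30.

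How many members passed differed with the scaling of the lines, and the test differed too. The ratio of the authors' deposited table was judged by the authors' p-values, and each quotient by the deposited errors of both lines. The parts of scaling and test in the differences between that ratio and the quotients were not tested. With the plain quotient of the intensities, which keeps the shift between the lines, 37 of 42 members were positive. The median of all genes was then 0.30, so most genes were positive too. Of the 42 members 16 passed, all higher, where 23.9% of all genes passed. Over all 9516 genes 2131 passed as higher, 93.5% of those that passed. CTSL1 was then at -0.13 and did not pass. With the quotient centred on the median gene, 5 passed (CTSD, GAA, TPP1 and CD68 higher, CTSL1 lower), with 9.69% of all genes. NPC2 then had 0.32 and CTSA 0.41, and neither passed. With an offset of 50 and centring, NPC2 joined those 5, with 9.55% of all genes, and CTSA, at 0.46, did not pass. CTSD passed under each of these scalings. The sign of LAMP2 and ATP6V1A was negative under all 4 scalings, as was that of CTSB and LIPA on their brightest probes.

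Other genes of the lysosome were taken as 8 lists, described by their counts. Of 134 such genes with a ratio, 12 passed (8.96%, against 7.55% of all genes), 5 higher and 7 lower, and their median in the authors' deposited table was 0.03. Among genes that tag and sort the enzymes, 3 of 20 passed (15%, against 7.55% of all genes). All 3 were higher (3.35% of all genes). The list had a median of 0.27 in the authors' deposited table. Its ratios were 17 positive (85%, against 48.0% of all genes) and 3 negative. With the plain quotient the median of this list was 0.62, where that of all genes was 0.30. GNPTAB, which encodes the alpha and beta subunits of the transferase that puts the mannose 6-phosphate tag on hydrolases, read 629.7 (error 40) in NFAT1-shRNA cells, against 342.1 (error 36.6) in NT-shRNA cells, with 0.54 on the log2 scale in the authors' deposited table (adjusted p = 0.00481). VPS29, of the retromer that returns sorting receptors, had 0.68 (adjusted p = 0.0199) and the clathrin heavy chain CLTC 0.56 (adjusted p = 0.0368) in the authors' deposited table. CLTC did not pass with the centred quotient. The adaptor subunit AP1S2 had the largest ratio of the list, 0.97 in the authors' deposited table, and did not pass (adjusted p = 0.109). The receptors M6PR and IGF2R, which carry tagged enzymes, had 0.29 and 0.13 in the authors' deposited table.

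Among other membrane proteins, 1 of 16 rose (6.25%, against 3.35% of all genes) and 1 fell (6.25%, against 4.19%). NPC1, the membrane partner of NPC2, read 245.3 (error 21.8) in NFAT1-shRNA cells, against 100.1 (error 19.2) in NT-shRNA cells, with 0.88 on the log2 scale in the authors' deposited table (interval 0.28 to 1.48, adjusted p = 0.0276). Both NPC genes, whose loss causes Niemann-Pick type C disease, were thus higher in the NFAT1-shRNA line. The sialomucin CD164 read 1152 (error 71.7) in NFAT1-shRNA cells, against 1668 (error 138.7) in NT-shRNA cells, with -0.81 in the authors' deposited table (adjusted p = 4.62e-09). Of 10 cystatins and serpins with a probe, 5 had a ratio, and 2 of these 5 fell (40%, against 4.19% of all genes). Cystatin B (CSTB), a cytosolic inhibitor of cathepsins such as L, B and H, read 4088 (error 379.6) in NFAT1-shRNA cells, against 5648 (error 262.9) in NT-shRNA cells, with -0.71 in the authors' deposited table (adjusted p = 0.000354). The serpin SERPINB6 had -0.61 (adjusted p = 0.000523) and cystatin C (CST3), the secreted inhibitor, 0.22 without passing, in the authors' deposited table. With the plain quotient SERPINB6 was at -0.30 and did not pass, while CSTB, at -0.47, did.

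Of 23 other hydrolases and enzymes, 2 passed (8.70%, against 7.55% of all genes), both lower (4.19% of all genes). These were PCYOX1 at -0.59 (adjusted p = 0.00201) and the hyaluronidase HYAL2 at -0.35 (adjusted p = 0.0327) in the authors' deposited table. With the plain quotient neither passed, at -0.34 and -0.05. None of 10 other pump subunits passed, with 2 of them (20%, against 19.2% of all genes) under an unadjusted p of 0.05 in the authors' deposited table. The largest ratio there was that of ATP6AP1L, -0.63 in the authors' deposited table, on a probe detected in neither line.

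**Figure D5:**
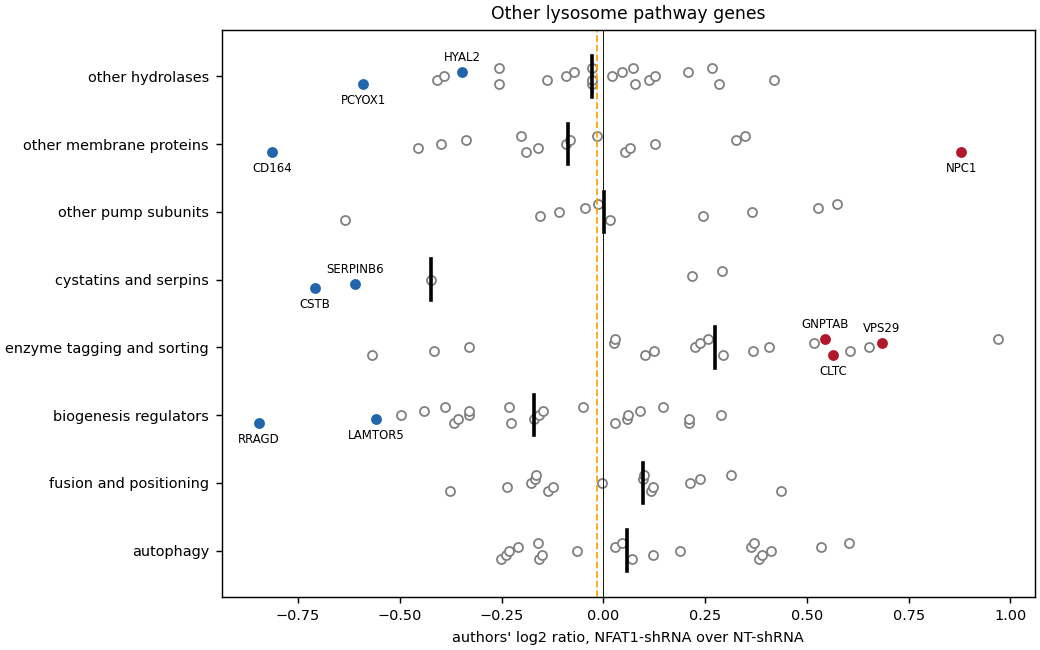
Log2 ratio in the authors' deposited table for other lysosome genes in 8 lists; each point is a gene (a few are not drawn), filled red where it passed as higher and filled blue as lower at an adjusted p under 0.05 (those genes are named), with black bars for medians over whole lists and a dashed line for the median of all genes (-0.02). NPC1 stands at 0.88 and CD164 at -0.81, and the sorting list has its median at 0.27.

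Of 23 regulators of lysosome formation, 2 passed (8.70%, against 7.55% of all genes). Both were lower (4.19% of all genes). The median of the list was -0.17 in the authors' deposited table. RRAGD, a Rag GTPase that binds mTORC1 to the lysosome, had -0.85 (adjusted p = 0.0308) and LAMTOR5, of the Ragulator complex that anchors the Rags, -0.56 (adjusted p = 0.00345) in the authors' deposited table. Neither passed with the plain quotient. TFEB read 80.2 (error 13.1) in the NFAT1-shRNA line, where it was not detected, and 81.5 (error 14.5) in the NT-shRNA line, with -0.37 in the authors' deposited table (interval -1.05 to 0.32, adjusted p = 0.756). TFE3 had a log2 ratio of 0.21 (adjusted p = 0.779) and MITF of -0.50 (adjusted p = 0.268) in the authors' deposited table. These are transcript levels, and the location of the proteins in the cell, which controls TFEB and TFE3, was not measured.

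The 17 genes of fusion and positioning had a median of 0.10 in the authors' deposited table, with 9 positive and 8 negative. None of 20 autophagy genes passed at the adjusted threshold, with a median of 0.06 in the authors' deposited table. Without adjustment 3 had p under 0.05 there (15%, against 19.2% of all genes), each with a positive ratio (9.12% of all genes). Those were BECN1, ATG3 and MAP1LC3A. The largest ratio of the whole autophagy list was that of WIPI2, 0.60 in the authors' deposited table (adjusted p = 0.288). WIPI2 did not reach the unadjusted threshold.

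Markers of cell identity were read beside these genes. All 9 melanoma markers were detected in NFAT1-shRNA cells, against 8 in NT-shRNA cells, where TYRP1 was not. Of 8 with a ratio, 2 passed (25%, against 7.55% of all genes), both higher. These were tyrosinase (TYR) at 1.63 and DCT at 1.01 in the authors' deposited table, enzymes of melanin synthesis that are stored in melanosomes. The other 6 did not pass. They were MLANA at -0.29, MITF -0.50, SOX10 0.01, S100A1 0.10, PMEL 0.13 and S100B 0.43 in the authors' deposited table. The part of TYR and DCT in the lysosomal values was not tested. Since CD68 and several cathepsins are abundant in macrophages, 11 macrophage and leukocyte markers were read too, and 10 were detected in neither line, PTPRC, CSF1R and LYZ among them. Only AIF1 was detected, with -0.70 on the log2 scale in the authors' deposited table, and did not pass (adjusted p = 0.0902). The summed signal of these 11 markers was 240.5 in NFAT1-shRNA cells, against 243.2 in NT-shRNA cells. Apart from AIF1 this sum adds undetected readings, so it cannot compare the lines for such cells. The keratinocyte list had 2 of 5 markers detected in both lines, and of 4 endothelial markers none was detected. Of 7 fibroblast markers, LUM was detected in both lines and COL1A2 in the NT-shRNA line alone.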

How the data were processed

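Total RNA of the 2 lines had RNA integrity numbers of 9.3 to 9.9 per the labels. Per the labels' protocols, amplified antisense RNA carried Cy5, while the extraction protocol names another maker's kit and chip, so the array maker is not settled here. The authors deposited, per the file headers, a detection p-value, a normalized intensity (linear scale) and an error of that intensity per probe and line, with the normalization and the combining of replicates not given in the sources used here. The table also holds, per the file headers, the authors' log2 ratio and the authors' p-value for it, whose method and adjustment are not stated. The series matrix held the same intensities as the table, within 5e-07.

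Probes naming 1 gene (25650) were used, 25400 of them matched to RefSeq gene IDs of GRCh38.p14. The authors' p-values were adjusted by Benjamini-Hochberg with SciPy 1.17.1. The 95% interval of a ratio was built from both deposited errors by propagation, taken as normal. Tests on rescaled quotients used that error too. On simulated data this test kept its false call rate when noise was on the log scale, and made too many false calls when noise was on the linear scale, so calls of noisy probes under rescaling are less firm. The p-values carry only what spread the authors' error holds, which may be technical. Named are all members called, the 3 largest absolute ratios of each role, members whose probes differ in sign, and of each other list those called and the largest. Other members were given beside them. Some genes that this rule names in the other lists are not reported here. The members and lists were chosen with earlier results of these data known.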

Additional observations from a re-analysis of the deposited data

How the results depend on the processing

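CTSD passed under all 7 settings tried for single genes, with values from 0.78 to 1.08 on the log2 scale. CTSA passed under 4, NPC2 under 5 and CTSL1 under 5. CTSD and CTSL1 have 1 probe each, detected in both lines. For them, settings that change the probe or the genes kept reuse the same ratio and authors' p-value. Only the adjustment then differs, so the passes of CTSD under those settings add little. With the plain quotient, which keeps the shift between the lines, the members called were 16 in place of 4 and the other lysosome genes called were 39 in place of 12. The role medians were then 0.23 for cathepsins, 0.57 for hydrolases, 0.44 for membrane and sterol-carrier proteins and 0.37 for the pump, and the share of higher calls over all genes was 93.5%, against 44.4% with the authors' deposited table. Over all genes 2278 passed with the plain quotient, 423 at an adjusted p under 0.01 and 718 as reported. The plain quotient leaves the shift in and was tested by the deposited errors, not by the authors' p-values. Tested the same way after centring on the median gene, 5 members and 17 other lysosome genes passed. At an adjusted p under 0.01, 2 members and 7 other genes passed, by construction fewer. With the second brightest probe SMPD1 turned to 0.52, and the cause was not tested. Members called stayed between 3 and 6 under the other 7 alternatives. No replicate could be left out and no paired analysis was possible because the table holds 1 combined value per line. Signals near background limit the dim members, of which 10 had no detected probe.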
